A study of Mus musculus with 68 samples.

Results

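The transcriptional response of NOD/ShiLtJ (NOD) fibroblasts to tunicamycin (TM) was described from 5 mRNA-seq libraries of a series of 68, namely the 3 TM libraries and the 2 control libraries of the NOD founder strain. Each library was taken in whole, so every one of the 13197 genes listed for the founder strains was a candidate and no gene was chosen by its value. The series was made to compare the response to stress of the endoplasmic reticulum (ER) between genetic backgrounds, in primary mouse embryonic fibroblasts (MEFs) of the 8 inbred founder strains of the Collaborative Cross and of F1 crosses among them. NOD is an inbred strain known for spontaneous autoimmune diabetes. NOD MEFs received 2 ug/ml TM or the solvent alone, 0.1% DMSO, and both were collected after 4 h. Each strain's MEFs came from several female embryos of a single litter and had been frozen and passaged before treatment, so the replicates were separately treated cultures of 1 cell preparation, and all p-values measure the spread between these libraries, which may be technical. The labels number the NOD controls 1 and 3. The authors removed libraries that did not group with their own condition before they normalised the rest.

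TM blocks DPAGT1, the enzyme that starts the synthesis of N-linked glycans, and proteins that cannot be glycosylated misfold in the ER. Cells answer with the unfolded protein response, which has 3 sensors in the ER membrane. IRE1 splices the mRNA of the transcription factor XBP1 and also cuts some other mRNAs, PERK phosphorylates eIF2alpha and so favours translation of ATF4 and of its target CHOP (encoded by Ddit3), and ATF6 is cleaved into a transcription factor for chaperone genes. Reduced translation and signalling from IRE1 and PERK can also release NF-kB, the transcription factor of many chemokine genes, from its inhibitors.

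Values are normalised read counts, that is reads on a gene scaled to a common library size (the geometric mean of the totals of the 40 founder libraries was 999494). They are not divided by transcript length, so levels are compared between libraries and not between genes. The 2 controls held 20157717 and 15544046 reads on genes and the 3 TM libraries held 9834347, 16795444 and 8260973. Of the 16 fibroblast markers, 15 were at 1 or above in every NOD library (Lum was lower), and of the 12 myeloid markers measured, 3 (Cd14, Csf1r and Cd68) were at 1 or above in every NOD library and 1, Tyrobp, was at 0 in all 5.

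The 2 controls stood apart from each other. Over 12908 genes their reads differed with a chi-square per degree of freedom of 52.2, against 4.1 to 6.2 among the pairs of TM libraries. That measure grows with read depth. The Pearson correlation of log2 values, 0.9845 between the controls and 0.9874 to 0.9918 among the TM pairs, showed a smaller gap. In control 1 the median gene of the shortest quintile by exon length lay 0.22 above the mean of the 5 libraries on the log2 scale and that of the longest quintile 0.18 below it (log2 deviation -0.18). In control 3 the deviation was -0.23 in the quintile of lowest GC content and 0.19 in the quintile of highest GC content. The counts of called genes and the list medians moved when a control was left out. The totals, and the lists whose counts or medians moved most, are therefore given without each control as well. Such a fit rests on a lone control assumed to vary like the TM libraries, and the difference between the controls is no part of its spread. Its call counts are not comparable with those of the main fit, and more calls in it do not mean more changed genes.

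**Figure D1:**
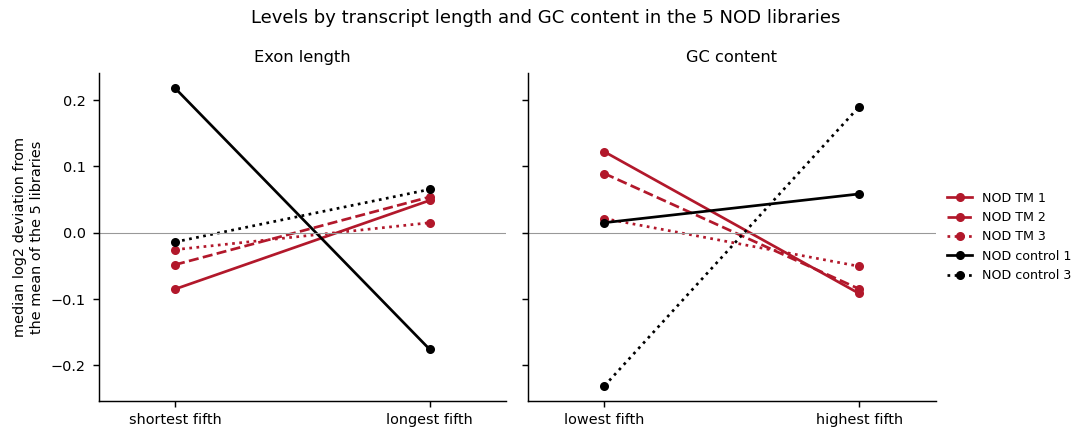
Median log2 deviation of each NOD library from the mean of the 5 libraries, for the shortest and longest quintile of genes by exon length (left) and the quintiles of lowest and highest GC content (right), over 11065 genes. Control 1 departs by length (0.22 and -0.18) and control 3 by GC content (-0.23 and 0.19), and the TM libraries lie between -0.09 and 0.12.

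Sequence upstream of 4 induced genes is shown, from the groups of ER folding, ER-associated degradation, the PERK arm and chemokines described in turn. Hspa5, Herpud1 and Ddit3 were chosen by name. Cxcl2 was taken as the other induced gene of largest log2 fold change with a motif match, so that it has a match was fixed by the choice. Each run is the 150 bases before the RefSeq start site in GRCm38.p6, on the plus strand of the reference genome and not of NOD. Capitals mark a match to one of 5 motifs, which in Hspa5 is the ER stress response element (ERSE), in Herpud1 the core of the CCAAT enhancer-binding protein and ATF response element (CARE) on the minus strand followed by ERSE-II, and in Cxcl2 the NF-kB consensus, read on both strands at positions 1 base apart. The window of Ddit3 held no exact match, and only exact matches were sought. On the minus strand its run holds CCAAT, 9 bases and GCACG, where ERSE has CCACG, and this near match is left unmarked.
Hspa5 (chr2:34771940-34772089): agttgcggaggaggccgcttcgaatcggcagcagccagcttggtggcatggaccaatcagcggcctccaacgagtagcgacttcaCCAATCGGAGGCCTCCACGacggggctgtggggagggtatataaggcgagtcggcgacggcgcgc
Herpud1 (chr8:94386279-94386428): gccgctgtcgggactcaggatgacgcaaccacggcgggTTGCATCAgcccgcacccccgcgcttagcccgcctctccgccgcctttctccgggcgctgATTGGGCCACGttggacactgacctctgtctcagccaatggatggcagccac
Ddit3 (chr10:127290643-127290792): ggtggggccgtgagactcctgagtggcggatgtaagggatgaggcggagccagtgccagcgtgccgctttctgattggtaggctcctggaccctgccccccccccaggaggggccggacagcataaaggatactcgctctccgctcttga
Cxcl2 (chr5:90903749-90903898): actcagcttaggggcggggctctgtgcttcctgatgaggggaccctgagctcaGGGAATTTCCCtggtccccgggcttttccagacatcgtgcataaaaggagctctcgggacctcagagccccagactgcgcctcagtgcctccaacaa

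The first question was which genes changed after 4 h of TM. Genes of ER folding and degradation, of the PERK arm, of amino acid supply, of NF-kB feedback and of chemokines were higher in the TM libraries, and a smaller set that included enzymes of sugar and sulfate transfer was lower. Of 12720 genes tested, 185 were induced, which is 1.45% of them, and 21 were lowered, 0.165% (limma on log2 of the value plus 0.1, adjusted p under 0.01 and a fold of at least 1.5). The median log2 fold change over all genes tested was -0.03. Without control 1 the counts were 561 and 288, and without control 3 they were 608 and 162, and the 185 and 21 genes were within both. Dropping a TM library gave fewer calls, 64 and 4 without TM 1, 58 and 4 without TM 2, and 37 and 2 without TM 3. Subtracting per library a fitted trend in exon length and GC content gave 295 and 51, which held 177 and 18 of the genes. A set of 35 induced and 2 lowered genes was called in all 16 settings, and it included Hspa5, Herpud1, Ddit3, Chac1, Cxcl1, Cxcl2, Ccl20, Tnfaip3, Scara3 and Ier5l. Of the 185 induced genes, 88 were in one of the gene lists described here and 97 in none, and 4 had no symbol. Of the 23 lists, 2 held a lowered gene by limma and by edgeR, the targets of IRE1-dependent decay and the ER-phagy genes.

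**Figure D2:**
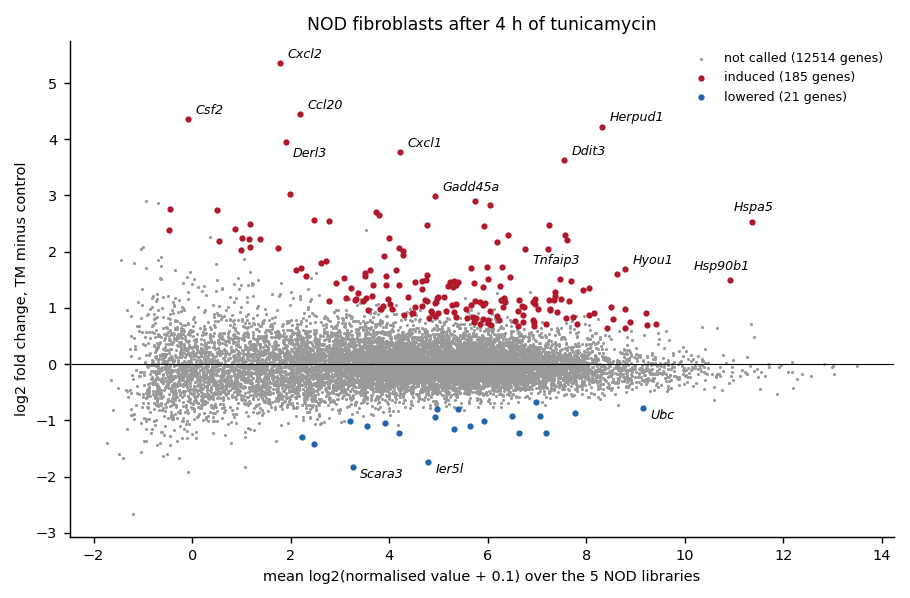
Log2 fold change (TM minus control) against the mean log2 value of each of 12720 genes over the 5 NOD libraries, with 185 induced genes in red, 21 lowered genes in blue and 12514 uncalled genes in grey. The induced genes reach 5.35 (Cxcl2) and the lowered genes -1.84 (Scara3).

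Among the ER chaperones and their cofactors, 8 of 23 rose, none fell, and the median log2 fold change was 0.37. Hspa5 (BiP, ENSMUSG00000026864), the main HSP70 chaperone of the ER lumen, was at 1041 and 820 in the controls and at 5405, 5216 and 5322 in the TM libraries. All 3 TM values lay above both controls, and the controls differed more between themselves than the TM libraries did. The log2 fold change was 2.52 (SE 0.13, limma adjusted p = 2.46e-05). Sdf2l1, a cofactor that keeps substrates soluble with BiP, had the largest change of the list, from 18.6 and 13.7 to 117, 121 and 122 (2.90, SE 0.14, limma adjusted p = 2.07e-05). Creld2, an ER-resident protein with disulfide exchange activity, went from 62.3 and 47.4 to 288, 296 and 325, and Dnajb9, a J-domain partner of BiP that restrains IRE1, from 27.3 and 17.4 to 135, 119 and 110. In both genes the groups were far apart, with log2 fold changes of 2.48 (SE 0.14) and 2.46 (SE 0.19). Hyou1, the nucleotide exchange factor of BiP, Hsp90b1 (GRP94), Dnajc3 and the secreted survival factor Manf rose by 1.69, 1.49, 1.36 and 1.28 on the same scale. The lectin chaperones Calr and Canx stood at 0.65 and 0.45 with limma adjusted p of 0.0184 and 0.0706, and did not pass.

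Of the disulfide isomerases and Ero1 oxidases, 4 of 20 rose and none fell, at a median log2 fold change of 0.15. That median was 0.31, with 6 induced, without control 1, and 0.0044, with 4 induced and 1 lowered, without control 3. Pdia4, a multi-domain isomerase, was at 204 and 200 in the controls and at 629, 605 and 605 with TM, with narrow spread in both groups (1.6, SE 0.10). Ero1lb, an oxidase that reloads the isomerases, Pdia6 and Txndc11 rose by 1.57, 0.91 and 0.82.

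In ER-associated degradation 5 of 29 genes rose, none fell, and the median was 0.15. Above control lay 24 of the 29, where 46.2% of all genes tested did, and the large changes were in a few members. Herpud1, a membrane scaffold of the degradation complex (ENSMUSG00000031770), was at 54.6 and 56.1 in the controls and at 1044, 1092 and 976 with TM. It had the smallest adjusted p of the 12720 genes (4.22, SE 0.11, 18.7 fold, limma adjusted p = 2.94e-07). Derl3, a derlin of the retrotranslocation channel, was at 0.86 and 0.44, and at 11.7, 12.3 and 9.27 with TM (3.94, SE 0.28). Syvn1 (HRD1), the ubiquitin ligase of the complex, went from 68.9 and 88.7 to 369, 376 and 342, and its partner Sel1l from 108 and 116 to 313, 329 and 294. Edem1, a lectin-like protein that delivers glycoproteins for degradation, rose by 0.93. The remaining 24 genes were not called, and Derl1 came nearest (0.54, limma adjusted p = 0.0235).

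The sensors themselves changed less. Of 14 sensors, activating proteases and transcription factors, 1 was called, Xbp1, which encodes the transcription factor made after splicing by IRE1 (114 and 107 against 261, 227 and 250; log2 fold change 1.15, SE 0.11, limma adjusted p = 6.64e-04). The gene-level values do not separate spliced from unspliced Xbp1. The PERK gene Eif2ak3 was at 22.2 and 29.5, and at 44.8, 45.5 and 45.3 with TM, without overlap, yet missed the threshold (0.82, limma adjusted p = 0.0147). Atf6 and Ern1, which encodes IRE1, had 0.46 and 0.43 (limma adjusted p 0.0732 and 0.262), and Dpagt1, whose product is the target of TM, had 0.09 (limma adjusted p = 0.755). Without control 1 limma called 2 of the 14 and without control 3 it called 5.

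In the PERK arm, 11 of 25 genes rose and none fell, with a median log2 fold change of 0.79. Ddit3 (ENSMUSG00000025408), which encodes the pro-apoptotic factor CHOP, was nearly equal in the controls, 41.3 and 41.9, and was at 467, 541 and 537 with TM (3.62, SE 0.11, limma adjusted p = 9.75e-07). Chac1, a glutathione-degrading enzyme, went from 18.3 and 22.3 to 150, 158 and 126, and Trib3, a pseudokinase that feeds back on ATF4, from 35.3 and 30.1 to 168, 153 and 160. The log2 fold changes were 2.83 and 2.29, and no TM value came near a control. Atf3, a transcription factor downstream of ATF4, was at 3.39 and 5.93, and at 27.3, 27.8 and 30.8 with TM (2.65, SE 0.22). Ppp1r15a (GADD34), which directs the phosphatase that restores translation, was at 94.9 and 94.0 against 271, 269 and 274 (1.52, SE 0.10). The transcript of Atf4, which is controlled mainly at translation, rose by 0.99 (321 and 269 against 566, 614 and 569). Vldlr, Cebpg, Sesn2, Jdp2 and Nupr1 were the other 5 called members. Stc2, a secreted glycoprotein of this arm, was not called (10.1 and 12.4 against 15.9, 16 and 17.4; 0.55, limma adjusted p = 0.0732).

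Genes that supply amino acids moved with this arm. Of 14 enzymes of amino acid synthesis and one-carbon metabolism, 7 rose and all 14 lay above control (median 0.68). Gpt2, a mitochondrial alanine aminotransferase, was at 20.4 and 18.5 against 40.5, 40.4 and 42.9 (1.08, SE 0.12), and Aldh1l2, Cth, Psph, Mthfd2, Got1 and Aldh18a1 rose by 0.69 to 1.12. Asns, which makes asparagine, was not called (0.67, limma adjusted p = 0.0151). Among amino acid transporters 3 of 14 rose, with Slc7a11, the cystine importer, at 6.69 and 8.77 against 33.9, 34.3 and 29.6 (2.07, SE 0.16). Its heavy chain Slc3a2 rose by 1.01 and the neutral amino acid carrier Slc1a4 by 1.11. The 3 calls became 4 without control 1 and 7 without control 3. Of 20 cytosolic tRNA synthetases 2 rose, Wars (0.74) and Eprs (0.64), while 18 of the 20 lay above control and the median was 0.43. There were 8 calls without control 1 and 4 without control 3.

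Few genes of glycosylation and transport were called, 5.71% of the N-glycosylation list and 2.63% of the traffic list, against 1.45% of all genes tested. Of 35 genes of N-glycosylation 2 rose, Alg12, a mannosyltransferase of the lipid-linked precursor (4.83 and 5.61 against 13.5, 13.5 and 13.6; 1.36, SE 0.15), and Magt1, a subunit of oligosaccharyltransferase (0.83). The median of that list was 0.08. Of 38 genes of COPI, COPII and ER-Golgi traffic 1 rose, the small GTPase Rab39b (1.45), with 2 called without control 1 and 3 without control 3. None of 26 genes of the translocon, signal recognition particle and signal peptidase was called by limma or edgeR, at a median of 0.16. At an unadjusted p under 0.05, where 11.3% of all genes tested were higher and 10.6% lower, 7 were higher and 1 lower, DESeq2 called 1, and limma called 4 without control 1 and 0 without control 3. Piga, which starts the glycosylphosphatidylinositol anchor and was in no list, was among the genes called in all 16 settings (10.5 and 8.64 against 60.1, 55.1 and 46.8; 2.48, SE 0.15).

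**Figure D3:**
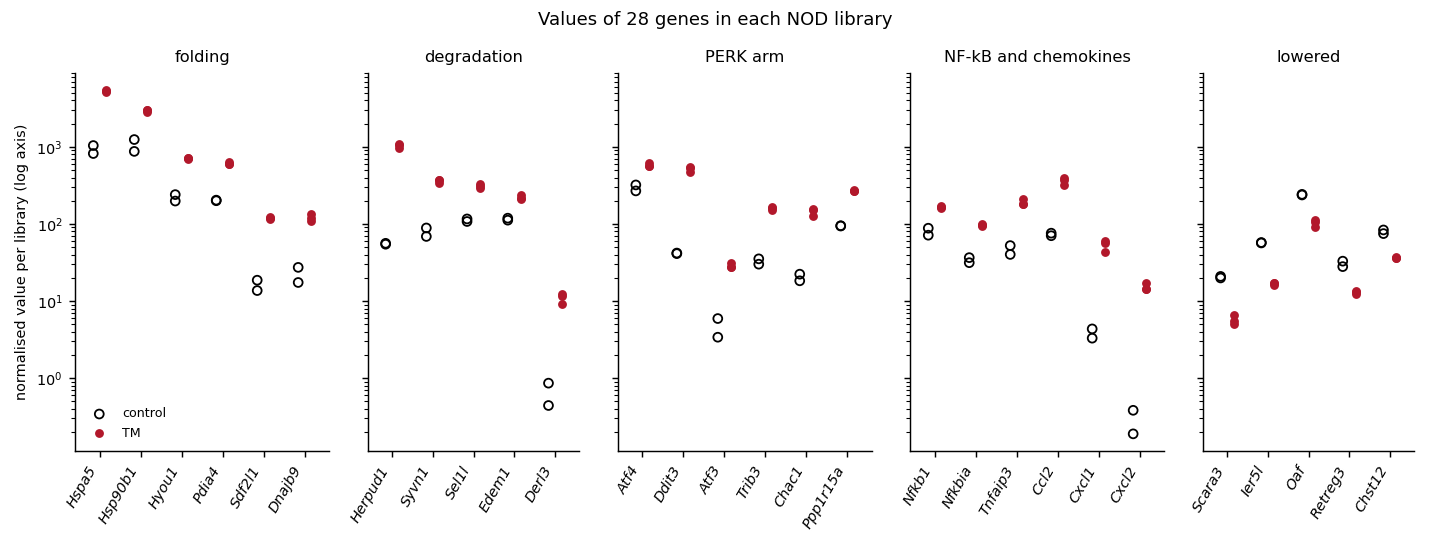
Normalised values of 28 genes in each NOD library on a log axis, controls as open and TM libraries as filled points, by group. The 28 genes were taken from those called in these same 5 libraries, so the separation of their points is no further evidence. In each, all 3 TM points lie on one side of both control points, above them in the first 4 panels and below them in the last.

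Genes of NF-kB feedback made up one of the lists with the largest medians. Of 23 NF-kB subunits and feedback inhibitors 11 rose and none fell (median log2 fold change 0.86). Tnfaip3 (A20), a ubiquitin-editing inhibitor of the pathway, was at 40.3 and 52.4 in the controls and at 208, 180 and 183 with TM (2.04, SE 0.14, limma adjusted p = 9.31e-05). Nfkbia, which encodes the inhibitor IkB-alpha, was at 31.5 and 36.6 against 94.2, 95.7 and 101 (1.51, SE 0.12). Both genes were well clear of the controls. Of the subunits, Nfkb1 was at 71.5 and 88.1 against 162, 165 and 171, Relb rose by 1.37, Nfkb2 by 0.86, and Rel stood at 1.52 without passing (limma adjusted p = 0.0458). Traf1, a signalling adaptor, was at 0.86 and 1.01 against 4.98, 4.33 and 4.80 (2.22, SE 0.23), and Birc3, Bcl3, Nfkbie and Zc3h12a, an RNase that degrades cytokine mRNAs, rose by 1.39 to 1.68. The list without control 1 had 12 called genes and without control 3 had 14.

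Of 34 chemokines, cytokines and acute-phase genes that were high enough to be tested 14 rose and none fell, and the median log2 fold change of 1.15 was the highest of the 23 lists. A gene could pass the filter on low values through the TM libraries alone, so this median describes the tested members only, and 5 of the 39 in the table were not tested. The list was also chosen with earlier results of these data known. Members such as Cxcl2, Ccl20 and Lif are named in the paper for strong strain effects on their induction. The rank of the list is in part set by that choice. Cxcl2 (ENSMUSG00000058427), a neutrophil chemokine, had the largest log2 fold change of the main fit, from 8 and 3 reads in the controls to 150, 249 and 149. That rank moved with the processing. Over the settings Cxcl2 ran from 3.66 to 5.72 and Herpud1 from 4.19 to 4.30, and the read ratio of Csf2 given below is larger. The normalised values were 0.38 and 0.19 against 14.4, 14.2 and 17.0 (5.35, SE 0.26, limma adjusted p = 2.07e-05), and the ratio of summed reads, scaled by library size, was 49.9 (exact 95% interval 27.7 to 101, counting error only). The related chemokine Cxcl1 was at 3.30 and 4.35 against 60.7, 56.9 and 43.4 (3.77, SE 0.19), and Ccl20, which draws lymphocytes and dendritic cells, at 0.86 and 0.44 against 14.9, 15.9 and 16 (4.44, SE 0.26). Csf2, the growth factor GM-CSF, had 1 read in each control and 29, 47 and 34 with TM, a ratio of 55.1 with an interval of 14.9 to 461. Chemokines and cytokines with many reads in the controls were among the induced genes too. Ccl2, the main monocyte chemokine, went from 76.0 and 70.4 to 392, 369 and 317 (2.29, SE 0.12), and Lif, an IL-6 family cytokine, from 54.2 and 75.0 to 283, 276 and 237 (2.05, SE 0.15). Cxcl5, Ccl7, Cxcl10, Cxcl16, Vcam1, Mmp9, Casp4 and Apobec1 completed the 14. The induced count was 21 without control 1 and 20, with 1 lowered, without control 3.

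Il6 was not called (13.1 and 9.21 against 15.8, 21.3 and 13.2; 0.58, limma adjusted p = 0.184), and its groups nearly touched. Tnf had 0 and 1 reads in the controls and 0, 2 and 0 with TM, and Il1b had no read in any of the 5 libraries. Nlrp3, the sensor of the inflammasome, rose from 3 and 2 reads to 19, 21 and 13 (ratio 10.6, interval 4.28 to 34). The summed value of 12 myeloid markers was 19.2 and 19.7 in the controls and between 10.3 and 14 with TM, and of the 6 high enough to be tested none was called by limma, edgeR or DESeq2, while 3 were lower at an unadjusted p under 0.05 in limma, against 10.6% of all genes tested. Lyz2, a macrophage lysozyme gene, was at or below 1.29 in every NOD library and Adgre1 at or below 0.13, while Csf1r, the receptor for the macrophage growth factor, was at 2.75 to 6.18 and Ptprc (CD45) at 0.63 to 1.26. In bulk RNA fewer cells of a type and less RNA per cell cannot be told apart.

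Cell fate and signalling lists had a few calls each. The induced share was 10.7% in the p53, growth arrest and BCL2 list, 12.5% in the immediate early list and 2.78% in the cell cycle list. Of all genes tested it was 1.45%. Of 28 p53 targets, growth arrest and BCL2 family genes 3 rose, with Gadd45a, a growth arrest gene, at 10.8 and 7.06 against 67.2, 68.3 and 75.0 (2.99, SE 0.18), while Gadd45b and Plk2 rose by 0.98 and 0.64. The median of that list was 0.07, and it was 0.17 without control 1 and -0.01, with 1 member lowered, without control 3. Of 32 immediate early and MAP kinase feedback genes 4 rose, Myc (130 and 152 against 350, 372 and 334; 1.32, SE 0.12), Egr1, Dusp8 and Klf6. Without control 1 the induced count was 5 and without control 3 it was 10, each with 1 lowered. Of 36 genes of cell cycle and replication 1 rose, the replication licensing factor Cdc6 (1.19). Among 11 snoRNA host and other noncoding RNAs Snhg12 and Snhg17 rose by 1.73 and 1.46, and there were 6 calls without control 1 and 4 without control 3. Of 321 zinc finger Zfp genes 9 rose (2.80%, against 1.45% of all genes tested), 252 lay above control, where 46.2% of all genes did, and the median was 0.33. None of them fell by limma or edgeR. The counts were 41 induced and 3 lowered without control 1, 30 and 0 without control 3, and 21 and 1 with length and GC correction. Zfp57, which guards imprinted methylation, was among the 9 (21.9 and 18.7 against 56.3, 59.3 and 53.5; 1.47, SE 0.13), as was Zfp324 (1.67, SE 0.19).

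Outside the lists, Cass4, an adhesion scaffold, was at 1.05 and 1.01 against 9.49, 9.12 and 8.69 (3.02, SE 0.19), and Tmem74, an autophagy-linked membrane protein, at 0.33 and 0.38 against 3.36, 2.68 and 2.86 (2.74, SE 0.29). Hey2, a Notch-responsive repressor, went from 2.44 and 2.14 to 14.7, 15.4 and 11.6 (2.54, SE 0.19).

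The lowered genes were fewer and their changes smaller, with none below a log2 fold change of -1.84. The 21 had a median exon length of 2893 bases and a median GC content of 56.1%, against 4564 and 49.7% for all genes tested. Control 1 was high in short genes and control 3 in GC-rich genes. With length and GC correction 18 of the 21 were still lowered. The part of these control deviations in the lowered set was not tested. Scara3, a scavenger receptor gene whose mRNA is a known target of IRE1, was at 19.9 and 20.9 in the controls and at 6.52, 5.47 and 5.03 with TM (-1.84, SE 0.17, limma adjusted p = 4.67e-04). It was the 1 member called of 11 targets of IRE1-dependent decay (median -0.23), and Hgsnat and Bloc1s1 were at -0.65 without passing. Limma called 2 of the 11 lowered and 1 induced without control 1, and 2 lowered without control 3. Ier5l, an immediate early response family gene, was at 56.7 and 57.5 against 16.4, 17.2 and 17.4, with no overlap (-1.74, SE 0.12, limma adjusted p = 9.01e-05). Retreg3, a receptor for turnover of ER by autophagy, fell by 1.22 on the log2 scale (28 and 32.9 against 12.2, 13.2 and 13.6), the 1 call among 22 genes of ER-phagy and autophagy.

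Enzymes of the Golgi and ER that modify sugars or proteins recurred among the 21, although this grouping was made after their values were seen and was not tested. The sulfotransferases Chst12 (75.0 and 83.6 against 37.8, 36.7 and 35.9) and Chst1 (23.6 and 23.0 against 12.1, 11.3 and 10.3) fell by 1.11 and 1.05. The glycosyltransferases Pomgnt2, Lfng, a modifier of Notch, and B4galt5, which makes lactosylceramide, fell by 1.43, 1.09 and 1.01, and P3h4, a partner of collagen-modifying hydroxylases, fell by 0.93. Cemip2, a cell-surface hyaluronidase, was at 54.3 and 74.9 against 28.5, 29.8 and 27.8, and the Wnt receptor Fzd2 at 43.7 and 46.4 against 23.3, 23.7 and 23.5. Oaf, Pbxip1, Cdc42ep2 and Pcyox1l fell by 1.22, 1.22, 1.3 and 1.01.

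No gene of cholesterol and fatty acid synthesis (26), collagens and matrix (39) or cytosolic ribosomal proteins (80) was called by limma or edgeR, and at an unadjusted p under 0.05 limma had 12, 9 and 13 of them lower and 0 higher, beside 10.6% of all genes tested lower and 11.3% higher. DESeq2 called 1, 1 and 0 lowered. Their medians were -0.31, -0.15 and -0.20, and 3, 8 and 9 of their members lay above control, against 46.2% of all genes tested. Dhcr7, the last enzyme of cholesterol synthesis, came nearest among the first (19 and 19.6 against 11.2, 11.3 and 11.6; -0.76, limma adjusted p = 0.0146) and Timp3, an inhibitor of matrix proteases, among the second (-0.85, limma adjusted p = 0.0110). The cholesterol median was -0.39, with 6 lowered, without control 1 and -0.27, with 2 lowered, without control 3. The collagen and matrix median turned, from -0.39 with 5 lowered without control 1 to 0.05 with 1 lowered without control 3. The ribosomal median was -0.02, with 1 induced, without control 1 and -0.41, with 4 lowered, without control 3. The part of the differences between the controls in these medians was not tested.

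**Figure D4:**
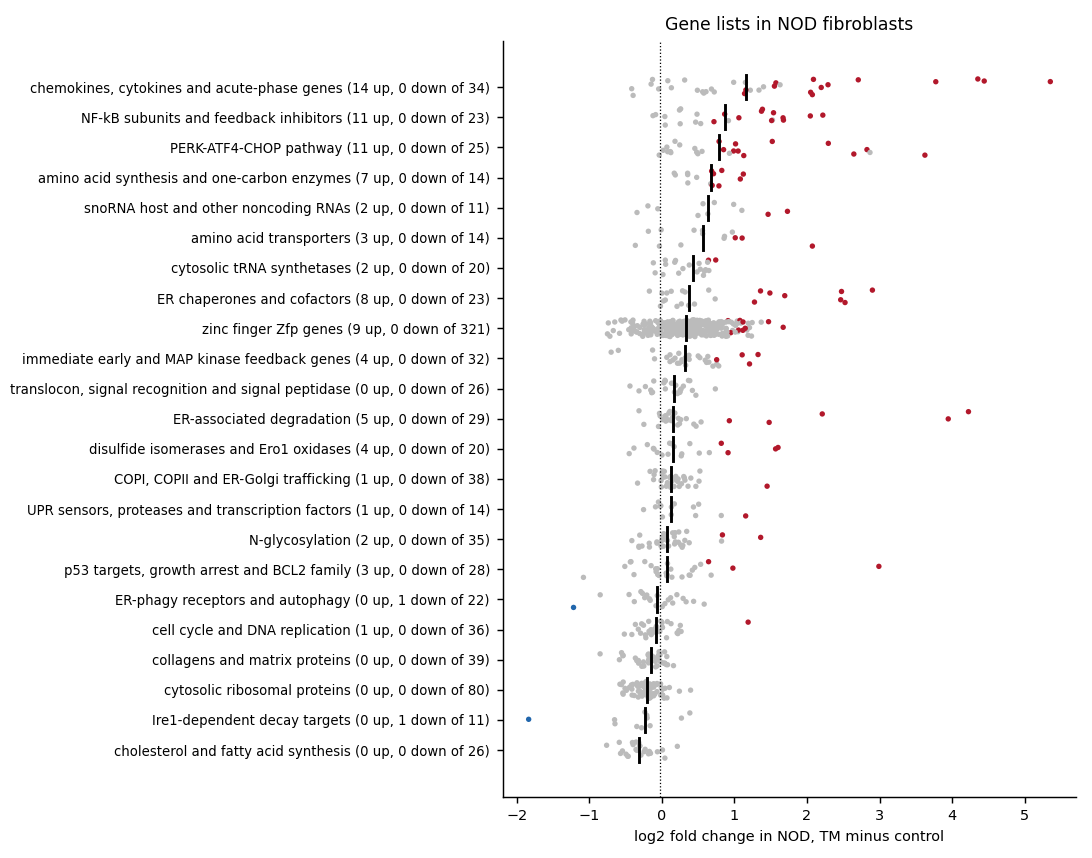
Log2 fold change in NOD of the tested members of 23 gene lists, 1 point per gene, induced genes in red, lowered in blue and uncalled in grey, with the list median as a black bar and the median of all genes (-0.03) as a dotted line. The medians run from 1.15 for chemokines and cytokines to -0.31 for cholesterol and fatty acid synthesis. The lists were chosen with earlier results of these data known.

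Motifs were counted in windows from 250 bases before to 50 after the RefSeq start, on both strands. A window was found for 140 of the 181 named induced genes, for 13 of the 21 lowered genes, and for 9910 of 12565 named genes tested. ERSE (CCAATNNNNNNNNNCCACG), the element bound by ATF6 with NF-Y, was in 9 of the 140 (6.43%) and in 17 of all (0.172%). The 9 genes were Alg12, Creld2, Derl3, Dnajc3, Hsp90b1, Hspa5, Pdia6, Syvn1 and Zfp57. The CARE core (TGATGCAA), bound by ATF4, was in 11 (7.86%, against 0.727% of all), which included Atf3, Chac1, Herpud1, Slc7a11 and Vldlr. ERSE-II (ATTGGNCCACG) was in Herpud1 alone of the 140 (0.714% against 0.0807%), and the UPRE core (TGACGTGG), an XBP1 site, in 2 (1.43% against 1.04%). The NF-kB consensus, a looser motif, was in 27 (19.3% against 12.6%), including Cxcl1, Cxcl2, Cxcl3, Ccl20, Nfkbia and Tnfaip3. None of the 5 was found in the 13 windows of lowered genes. A match is a description of these letters and not of binding. Only exact matches in these windows were counted, so a gene without a match may still hold a near match or a site further away.

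The second question was whether NOD responded differently from the other founder strains. The interaction of strain and treatment was tested for 13197 genes in a fit over the 40 founder libraries, against the mean of the 7 other strains and against C57BL/6J (B6). No gene was called in either contrast by limma (0% in each direction; smallest adjusted p 0.632 and 0.0490), and edgeR called none. At an unadjusted p under 0.05 limma had 128 of the 13197 genes higher and 142 lower in NOD against the 7, and 79 and 91 against B6. Both totals are below what that cut would give on average if no gene differed. The median residual SD differed between strains, from 0.105 in B6 to 0.350 in A/J with 0.173 in NOD, and the fit shares one estimate per gene. What follows is therefore a description of values and not of differences that passed a test.

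All 21 lowered genes had the same sign in all 8 strains, as had 181 of the 185 induced genes, and 130 of the induced genes reached 1.5 fold in all 8. NOD lay within the range of the other 7 strains for 156 induced genes, above it for 15 and below it for 14. These genes were chosen for passing in NOD, which favours high values there, and the ranks moved with the controls. NOD was above the others for 9 and below them for 4 genes without control 1, and above for 31 and below for 23 without control 3. With both controls, 5 of the 8 induced chaperone genes had their lowest response in NOD, but 0 of them had it without control 1 and 6 without control 3. Hspa5 had 2.52 in NOD against 2.54 to 3.06 in the others, Dnajb9 2.46 against 2.78 to 3.14, and Hsp90b1 1.49 against 1.53 to 2.21, and Dnajc3 and Manf were at the edge of the range as well. Without control 1 the NOD values of Hspa5, Dnajb9 and Hsp90b1 were 2.70, 2.79 and 1.74, each within the range of the other strains. Atf3 and Cebpg in the PERK arm were lowest in NOD too, with both controls. Stc2 had the smallest p of the contrast with the 7, at 0.55 in NOD against 1.20 to 1.95 (difference -0.98, SE 0.21, limma adjusted p = 0.632). Its NOD controls (10.1 and 12.4) lay above those of every strain except B6 (12.9 and 13.1), and B6 rose by 1.45. The part of the control level in the NOD value was not tested. Gtpbp2, a GTPase that acts on stalled ribosomes, had 0.25 in NOD against 0.60 to 1.11 (difference -0.65, SE 0.15, limma adjusted p = 0.632). Its NOD TM values, 30.9 to 34.3, lay below those of all the other strains, of which 129S1/SvImJ was the nearest (42.6 to 61.9).

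Of the 11 induced NF-kB genes 4 were highest in NOD with both controls, 0 without control 1 and 5 without control 3. The 4 were Nfkb1 (1.06 against 0.36 to 1.03), Nfkbie (1.54 against 0.63 to 1.53), Traf1 (2.22 against 0.98 to 2.19) and Zc3h12a (1.39 against 0.48 to 1.27). In each the margin over the next strain was smaller than the SE in NOD. Zc3h12a differed from the mean of the 7 without passing (difference 0.56, SE 0.16, limma adjusted p = 0.994). Smpd3, a neutral sphingomyelinase, had the smallest p among genes higher in NOD (difference 1.41, SE 0.39, limma adjusted p = 0.994).

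Some cytokines that myeloid cells make in quantity were near 0 in NOD. Tnf reached 2.08 to 3.56 in B6 and 4.00 to 8.05 in A/J with TM, and stayed at or below 0.11 in NOD, 0.10 in 129S1/SvImJ and 0.27 in WSB/EiJ. PWK/PhJ lay between, at 0.67 to 1.14. Il1b reached 1.91 to 2.93 in A/J and had no read in NOD. Clec4e, a C-type lectin of macrophages, had 1 read in 5 NOD libraries and 1.42 to 1.73 in TM-treated B6, and its contrast with B6 had the smallest p (-3.57, limma adjusted p = 0.0490). Cybb and Ccl3 had at most 1 read in each NOD library as well. With TM, 129S1/SvImJ reached at most 0.10 for Il1b, 0 for Clec4e, 0.13 for Cybb and 0.21 for Ccl3. WSB/EiJ reached at most 0.20, 0.10, 0.20 and 0 for the same genes, so values near 0 were not particular to NOD. PWK/PhJ was higher than NOD in all of them, at 0.79 to 0.91, 0.60 to 0.95, 0.50 to 0.85 and 0.18 to 0.47 with TM. The summed value of 12 myeloid markers in the controls was 19.2 to 19.7 in NOD, 17.9 to 19.6 in 129S1/SvImJ, 18.4 to 19.2 in PWK/PhJ, 8.53 and 47.2 in the 2 WSB/EiJ controls, and between 30.8 and 75.2 in the 4 remaining strains. B6 (45.3 to 47.8) and A/J (69.0 to 75.2) were the highest pair of these 4. The sum weighs each gene by its reads, and Lyz2 alone made up a large part of it in B6 and A/J. Lyz2 was at 0.19 to 1.29 in NOD, 13.0 to 23.7 in B6 and 19.6 to 43.1 in A/J, but Csf1r was at 2.75 to 6.18 in NOD and 5.08 to 6.53 in B6, and Ptprc at 0.63 to 1.26 and 0.51 to 1.13. The part of such cells in these values was not tested. Cxcl2, Cxcl1, Ccl2 and Lif, which rose in NOD at these marker levels, were within the range of the other strains.

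**Figure D5:**
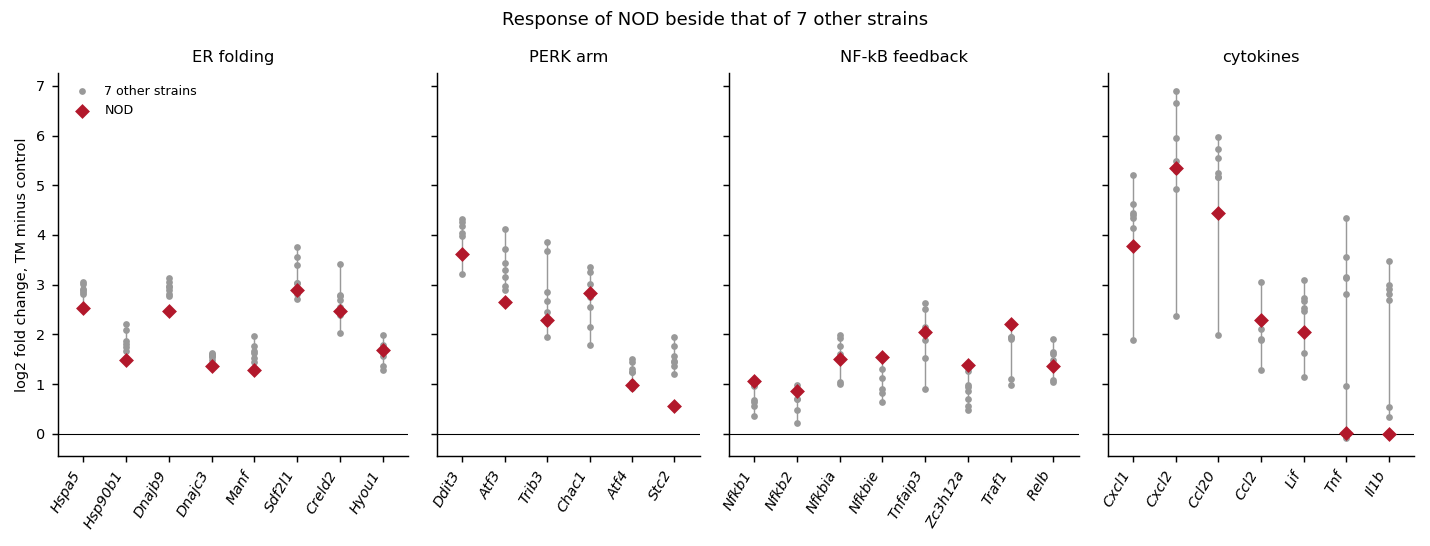
Log2 fold change (TM minus control) of 29 genes in NOD (red diamonds) and in each of the 7 other founder strains (grey points joined by a line). With both NOD controls, NOD is at the low end in Hspa5 (2.52) and Dnajb9 (2.46) and at the high end in Nfkb1 (1.06) and Zc3h12a (1.39), positions lost without control 1, and within the range for Cxcl2 (5.35). Tnf and Il1b had 0 to 2 reads in each NOD library, so their NOD markers at 0 are no measured response.

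The F1 of a B6 mother and a NOD father (xNOD) gave a further view of the NOD response, in 3 control and 2 TM libraries normalised in a separate table. Its cells carry 1 NOD genome and came from a separate preparation with libraries of its own. By limma, 460 of 12468 genes rose in xNOD (3.69%) and 573 fell (4.6%). With any 1 of its 3 controls left out these counts were 13 to 19 and 0, and they were 600 and 843 without TM 1 and 1089 and 2027 without TM 2. Of the 185 genes induced in NOD 184 were tested in xNOD, 182 had the same direction, 103 rose there (56.0% of those tested, and 22.4% of the 460), and none fell. Of the 21 lowered genes 19 had the same direction and 11 fell (52.4%, and 1.92% of the 573). The median log2 fold change of the induced genes was 1.17 in NOD and 0.93 in xNOD.

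Hspa5 had 2.79 in xNOD, Herpud1 4.1, Ddit3 3.90, Cxcl2 5.01 and Ccl20 4.55, beside 2.52, 4.22, 3.62, 5.35 and 4.44 in NOD. Slc7a11 had 1.15 in xNOD and 2.07 in NOD. Several genes called in NOD were not called in xNOD, among them Nfkb1 (0.26, limma adjusted p = 0.138), Vldlr (0.29, limma adjusted p = 0.295), Gpt2 (0.36, limma adjusted p = 0.208), Aldh1l2 (0.08, limma adjusted p = 0.740) and Tmem74 (0.63, limma adjusted p = 0.425). The difference between NOD and xNOD was not tested, because the tables were normalised apart. The ribosomal protein list had a median of 0.50 in xNOD and -0.20 in NOD, and snoRNA hosts of 1.20 and 0.63.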

How the data were processed

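mRNA of primary MEFs was sequenced as single-end 100 bp reads. The authors aligned them with TopHat 1.4.1 to a genome built for each strain, counted reads on genes, scaled them by TMM in edgeR, removed outlying libraries and normalised again. Their methods name the values FPKM, but the deposited signal was whole multiples of 1 step per library (tolerance 0.01) in every library, so it is reads divided by a size factor, with no length term, and whole reads were recovered from it for 100% of values in the 5 NOD libraries. 13023 of 13197 gene IDs were named from GENCODE M21. Strand was not used here, so reads of a gene and an overlapping antisense gene cannot be told apart, and reads of near-identical copies (such as Usp17la or ribosomal pseudogenes) may be split. Of the xNOD signal, 20.5 to 21.2% lay on 3 lines that name no gene, which were left out. Among the deposited files, 9 were used and 4, of F1 crosses without NOD, were not.

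Values were tested with limma 3.58.1 (R 4.3.3; trend in the prior variance, log2 of the value plus 0.1) on genes at 0.5 or more in at least 2 libraries of the contrast, with Benjamini-Hochberg adjustment over all genes tested, calling adjusted p under 0.01 and at least 1.5 fold. NOD and xNOD were fitted each on its own 5 libraries, and the interactions on the 40 founder libraries. edgeR 4.0.16 and DESeq2 1.42.0 on recovered reads were alternatives, with 2 libraries of other strains left out, whose step lay so near 0.1 that it could be rounding. Intervals of read ratios are exact and cover counting error only. Named genes were the 15 with the largest change in each direction with separated groups, the 4 of smallest adjusted p in each list, role genes, and the 5 of smallest p per direction in each interaction, with further members of lists or of the called genes named where a count needed them. The gene lists and members were chosen with earlier results of these data known. Replicate numbers did not pair the samples: the correlation of deviations was 0.0125 for control 1 with TM 1 and -0.0148 for control 3 with TM 3. Scripts were tested on simulated data. Tables were read in Python 3.11.15 with pandas 2.3.3, and figures drawn with matplotlib 3.10.9.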

Additional observations from a re-analysis of the deposited data

How the results depend on the processing

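The NOD counts, 185 induced and 21 lowered, were 64 and 3 without the trend in the prior variance, 405 and 115 at 5% FDR, 385 and 78 by DESeq2, and 295 and 51 with length and GC correction, an alternative chosen after seeing the data. edgeR gave 187 and 23. The fit over 40 libraries gave 249 and 57, and the replicate block 275 and 62. Leaving out each library gave 37 to 608 induced and 2 to 288 lowered. A fit without 1 of the 2 controls rests on a lone control assumed to vary like the TM libraries. Pseudocount, low-value filters and median-of-ratios scaling kept both counts within 1.5 times. The interactions stayed at 0 with a few exceptions. Against the 7 strains 1 gene was lower without 129, A and NZO (Stc2) and 1 with length and GC correction (Gtpbp2). Against B6 1 gene was lower at 5% FDR and without the trend, Clec4e in each. Clec4e had 1 read in the 5 NOD libraries, so this call reflects the rise in B6. DESeq2 was not run on the interactions. In xNOD the 460 and 573 became 24 and 4 without the trend, 957 and 1523 at 5% FDR, 969 and 1068 by DESeq2, 304 and 123 with length and GC correction, and 470 and 1036 with the replicate block. Leaving out each library gave 13 to 1089 induced and 0 to 2027 lowered. Of 135 named genes 1 reversed, Rplp1, from a log2 fold change of -0.45 to 0.0205 with length and GC correction. Of the 74 named genes that were called, 46 lost the call under at least 1 setting. The causes were not tested. With 3 residual degrees of freedom and controls that differ, genes with small changes cannot be resolved here.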
